A study of Mus musculus with 14 samples.

Results

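HDAC3 peaks that were listed in mouse quadriceps at ZT10, had no counterpart at ZT22 and lay close to another ZT10 peak are described here. Zeitgeber time (ZT) is the number of hours since lights on; ZT10 is towards the end of the light period and ZT22 towards the end of darkness. The peaks were chosen by 2 measured values, their listing and their position: a peak was taken when it shared not even 1 bp with any peak of the ZT22 list and when the centre of another ZT10 peak lay within 10 kb on the same chromosome. This gave 766 peaks of the 4093 listed at ZT10 (18.7%), and of the 3383 ZT10 peaks without a ZT22 overlap (called ZT10-only below) they made up 22.6%. The other ZT10 peaks were 2617 isolated ZT10-only peaks, 221 shared peaks (overlapping a ZT22 peak) in close groups and 489 isolated shared peaks.

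Both lists came from HDAC3 ChIP-seq of quadriceps from 4-month-old male mice of strain C57BL/6 (C57B/6 in the sample labels) with wild-type HDAC3, kept on normal chow and a normal light and dark schedule, with 1 library at ZT10 and 1 at ZT22. The peak list names say that the lists were filtered by the knockout, and the labels hold 1 knockout HDAC3 ChIP-seq library, taken at ZT10. The sources used here do not say how HDAC3 was removed or in which cells. Of the 14 samples of the series, 6 (the knockout ChIP-seq library, 3 input libraries and 2 nascent RNA libraries) were not analysed here. With 1 library per time there was no replicate, so no difference between times or between classes of peaks was tested. Neighbouring peaks of 1 library are not independent, and the 95% Wilson intervals given below cover counting error only.

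HDAC3 is a histone deacetylase that works within the NCoR and SMRT corepressor complexes. It does not bind DNA by itself but is brought to enhancers and promoters by transcription factors, among them the REV-ERB nuclear receptors of the circadian clock. Regulatory elements often lie in clusters along a chromosome, and ChIP-seq peaks a few kilobases apart can be neighbouring elements or parts of 1 broad bound region. Positions alone cannot separate these.

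RNA libraries of the same tissue label, 3 wild-type and 3 knockout at ZT10, were used only to check the labels. The 5 muscle markers (Acta1, Ckm, Mb, Tnnt3 and Myh4) summed to 42350 to 53209 FPKM (RNA fragments per kilobase, relative to all mapped fragments) in the wild-type libraries and to 42209 to 51877 in the knockout libraries. Hepatocyte markers, which muscle should lack, were at most 0.130 FPKM in sum, with Apoa1 and Ttr listed at 0 in all 6 libraries. The 3 macrophage markers found in the table summed to 6.21 to 9.83 FPKM over the 6 libraries, the 3 endothelial markers to 43.2 to 50.3, the 3 adipocyte markers to 306 to 472 and the 3 fibroblast markers to 193 to 411. Nearly all of the adipocyte sum was Fabp4, at 303 to 468 FPKM, a gene that endothelium also expresses, while Adipoq was at 1.62 to 6.62 and Plin1 at 0 to 1.04. Hdac3 itself was at 33.3, 31.0 and 23.7 FPKM in the wild-type libraries and at 5.51, 6.29 and 8.16 in the knockout libraries, and the groups did not overlap.

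The depth of the ChIP-seq libraries is not given in the lists, but their scores carry a grain. Every ZT10 score lay within 0.06 of a whole multiple of 1.0995, and every ZT22 score within 0.06 of a whole multiple of 1.025 (evenly spread values would do so in 10.9% and 11.7% of cases). The lowest score was 14.3 in both lists, which is 13 steps at ZT10 and 14 steps at ZT22. The sources used here do not say whether a step stands for 1 read; if it does, the exact Poisson interval of a score of 14.3 at ZT10 runs from 7.61 to 24.4. On that reading 24.2 is the lowest score whose interval lies wholly above 14.3, and 225 of the 766 grouped ZT10-only peaks (29.4%) reached it. That is near the share in the whole ZT10 list, where 1256 of 4093 peaks (30.7%) reached it. The share was 23.8% of isolated ZT10-only peaks, 58.8% of grouped shared peaks and 57.1% of isolated shared peaks. Absence from the ZT22 list is therefore an absence of a listed peak, and no ZT22 value exists for these sites in the files. Peak names carry a number on each chromosome, and the highest numbers sum to 17516 at ZT10 and 9241 at ZT22, of which 23.4% and 15.8% are listed. Nothing in the sources used here says what became of the other numbers.

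The grouped ZT10-only peaks fell into 413 close groups, where a group is a run of ZT10 peaks in which each centre lies within 10 kb of the next. Most groups were pairs: 327 groups held 2 peaks, 64 held 3, 17 held 4, 2 held 5 and 3 held 6. Of the 766 peaks, 543 (70.9%) lay in pairs, 158 (20.6%) in groups of 3 and 65 in larger groups. From the first base of the first peak to the last base of the last, a group spanned a median of 4275 bp, with a range of 468 to 21953 bp. A further 22 close groups of ZT10 peaks held shared peaks alone and are not part of this set.

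Of the groups with a ZT10-only peak, most held no shared peak. In 257 of the 413 groups every peak was ZT10-only, and these held 561 of the 766 peaks (73.2%). The other 156 groups were mixed and held 205 ZT10-only and 176 shared peaks. For 613 of the 766 peaks (80.0%) the nearest ZT10 peak was itself ZT10-only, slightly under the 82.7% of ZT10-only peaks in the whole ZT10 list. A shared peak was part of 111 of 327 pairs, 28 of 64 groups of 3 and 17 of the 22 groups of 4 or more. A group with more peaks has more chances to contain a shared one, so this is a description of group make-up.

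Close spacing was less common among ZT10-only than among shared peaks. Of the 710 shared peaks 221 lay in close groups (31.1%, Wilson interval 27.8% to 34.6%), against 22.6% (21.3% to 24.1%) of ZT10-only peaks. Read the other way, 22.4% of grouped ZT10 peaks and 15.7% of isolated ZT10 peaks overlapped a ZT22 peak. The gap between the classes varied with the score. Among peaks scoring under 20, 20.8% of ZT10-only and 29.0% of shared peaks were grouped; from 20 to under 30 the shares were 23.7% and 29.8%. From 30 to under 40 they were 30.7% and 31.9%, and at 40 or more 31.8% and 35.6%. The intervals of ZT10-only and shared peaks overlapped in every class but the one under 20. Class sizes differed, from 2165 ZT10-only peaks under 20 to 132 at 40 or more. Overlap of these intervals therefore does not tell in which classes a gap holds, and none was tested. The grouped share of ZT10-only peaks was thus higher in the higher score classes. For shared peaks the rise was smaller, and the intervals of the lowest and highest class overlapped (23.2% to 35.6% and 28.3% to 43.7%).

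Spacing to the nearest ZT10 peak ran from 287 to 9991 bp, with a median of 2922 bp and quartiles at 933 and 5743 bp. The closest pair, singled out after its values were seen, was chr19:47303264-47303413 (score 17.6) and chr19:47303551-47303700 (score 20.9) of mm9, both ZT10-only. Within 500 bp lay 80 peaks, between 500 and 1000 bp 126, between 1000 and 2000 bp 116, between 2000 and 5000 bp 204 and between 5000 and 10000 bp 240. Neighbours within 1 kb were thus the most frequent per kilobase: 206 of the 3383 ZT10-only peaks (6.09%) had their nearest ZT10 peak in the first kilobase, 116 (3.43%) in the second and 38 (1.12%) in the tenth. The eleventh kilobase, just outside the limit, held 53 (1.57%), so the curve shows no break at the 10 kb limit. Shared peaks were likewise most frequent in the first kilobase, at 7.04%, with 5.63% in the second and 0.845% in the tenth. Among the grouped ZT10-only peaks score did not follow spacing, with median scores of 17.6, 19.8, 18.7, 19.8 and 18.7 from the closest to the widest class. The share whose nearest peak was a shared one was 15%, 21.4%, 21.6%, 22.5% and 17.9% in the same order.

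**Figure D1:**
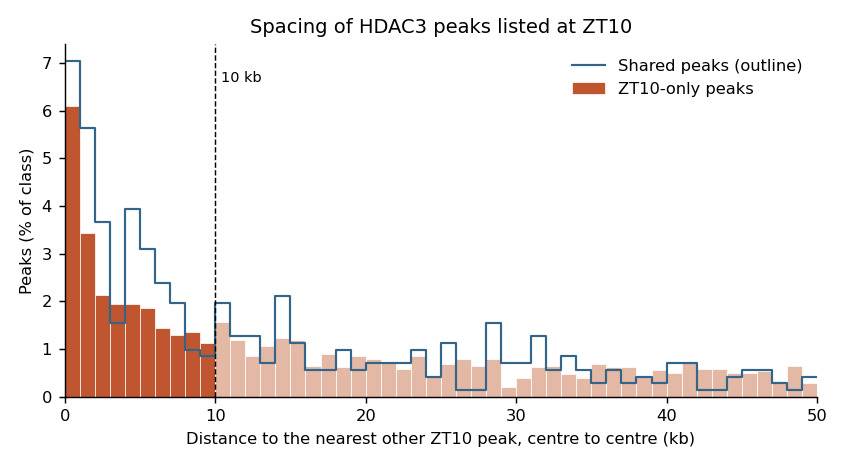
Share of ZT10-only peaks (bars, n = 3383) and of shared peaks (outline, n = 710) in 1 kb classes of the distance to the nearest other ZT10 peak, in kb from centre to centre. Dark bars are the 766 peaks inside the 10 kb limit (dashed line); the first class holds 6.09% of ZT10-only peaks and the tenth 1.12%.

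At the edge of the rule, the widest-spaced peak taken was chr5:65194128-65194277 (score 22), 9991 bp from its neighbour, followed by the pair chr12:15990875-15991024 and chr12:16000851-16001000 at 9976 bp (scores 30.8 and 15.4). Just outside lay chr8:11183595-11183744 (score 47.3) at 10071 bp and the pair chr4:149395051-149395200 and chr4:149405139-149405288 at 10088 bp (scores 35.2 and 14.3). The overlap rule has an edge of the same kind. The grouped ZT10-only peak closest to a ZT22 peak, chr17:56432532-56432681 (score 19.8), had its centre 153 bp from it, and chr2:60561004-60561153 (score 44) lay 155 bp away, whereas the grouped shared peak with the least overlap, chr5:38928211-38928360 (score 23.1), lay 145 bp away. At the overlap limit, peaks that differ by a few base pairs thus stand on opposite sides.

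Scores of the grouped ZT10-only peaks ran from 14.3 to 131.9 with a median of 18.7 and quartiles at 16.5 and 25.3. The whole ZT10 list had the same median and quartiles. The score is the authors' own value for each peak. ZT22 scores are given beside ZT10 scores only to describe single sites, and no change is read from them. Isolated ZT10-only peaks had a median of 17.6 and quartiles at 15.4 and 23.1, and the 2 classes overlapped over nearly their whole range. Shared peaks scored higher, with medians of 27.5 in close groups and 26.4 when isolated. Listing at ZT22 defines these classes and both lists stop at a lowest score, so this difference is given as a description. At the lowest score of 14.3 stood 94 grouped ZT10-only peaks (12.3%), beside 14.8% of isolated ZT10-only peaks, 1.36% of grouped shared peaks and 12.2% of all ZT10 peaks. A score of 40 or more was reached by 42 grouped ZT10-only peaks (5.48%), beside 3.44%, 23.5% and 6.79% in the same order.

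**Figure D2:**
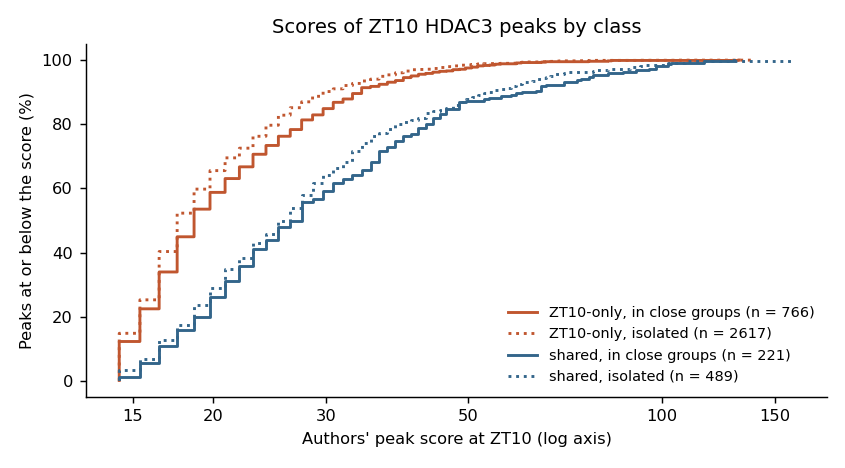
Cumulative share of ZT10 peaks at or below each score by the authors (log axis) for ZT10-only peaks (orange) and shared peaks (blue), in close groups (solid) or isolated (dotted). The curves of grouped and isolated ZT10-only peaks run close together, with medians of 18.7 and 17.6, and to the left of the shared peaks, with medians of 27.5 and 26.4.

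In the 216 pairs of 2 ZT10-only peaks the lower peak had a median score of 16.5 and the higher 23.1, and the median ratio of lower to higher was 0.789. In 31 of these pairs the higher peak scored at least 2 times the lower, and in 14 both were equal. In the 111 pairs of 1 ZT10-only and 1 shared peak the shared peak was the higher in 71 (64.0%), the ZT10-only peak in 34, and 6 were equal, with median scores of 18.7 for the ZT10-only and 24.2 for the shared peak. So in 34 pairs the weaker of the neighbours was the one listed at both times. Pairs of both kinds were spaced alike, at medians of 2974 bp for ZT10-only pairs and 2960 bp for mixed pairs. ZT10-only peaks had a median score of 18.7 in groups of ZT10-only peaks and in mixed groups, with upper quartiles of 24.2 and 28.6.

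The 6 groups with the most ZT10 peaks (ties ordered by summed score) show how the kinds mix, and all coordinates are those of mm9, counted from 1. The first group, chr7:53595259-53608796, held 6 peaks over 13538 bp. Its 2 ZT10-only peaks stood side by side at its start, chr7:53595259-53595408 with a score of 22 and chr7:53595787-53595936 with 14.3. The 4 shared peaks that followed scored 39.6, 97.8, 27.5 and 34.1 at ZT10, and the ZT22 peaks on them 17.4, 50.2, 29.7 and 20.5. Here the ZT10-only peaks were the weakest of the group.

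The second group, chr7:119885347-119907299, had 6 peaks over 21953 bp, the longest span of any group with a ZT10-only peak. Its ZT10-only peaks, chr7:119900230-119900379 (score 17.6) and chr7:119906527-119906676 (score 19.8), lay among 4 shared peaks of 20.9, 20.9, 22 and 27.5. The 6 scores thus ran from 17.6 to 27.5. The ZT22 list had 1 further peak there, chr7:119895583-119895732 with a ZT22 score of 15.4, which overlapped no ZT10 peak.

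In the third group, chr3:108013001-108029712, the order was reversed along the chromosome: 2 shared peaks (scores 30.8 and 19.8) opened it and 4 ZT10-only peaks followed. The first of these, chr3:108015359-108015508, scored 30.8, as high as the stronger shared peak. The remaining 3 scored 14.3, 16.5 and 15.4 and lay 10187 to 16015 bp from the nearest ZT22 peak.

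The group chr4:119949847-119963240 held 1 shared peak of 20.9 and 4 ZT10-only peaks. Of these, chr4:119950381-119950530 scored 59.4 and stood 534 bp from the shared peak, whose ZT22 counterpart scored 18.4. The others scored 15.4, 17.6 and 17.6. In this group the strongest peak of the run was one without a ZT22 overlap, 492 bp from a listed ZT22 peak.

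The group chr6:145799467-145812516 was the largest made of ZT10-only peaks alone. Its 5 peaks scored 19.8, 33, 25.3, 26.4 and 24.2, with gaps of 1195, 2769, 5087 and 3849 bp between centres. The nearest ZT22 peak lay 9382315 bp away from the closest of them. The sixth group, chr1:36361720-36380237, was the opposite case: a single ZT10-only peak at the lowest score, chr1:36369742-36369891 with 14.3, lay between shared peaks of 48.4, 103.3 and 17.6.

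**Figure D3:**
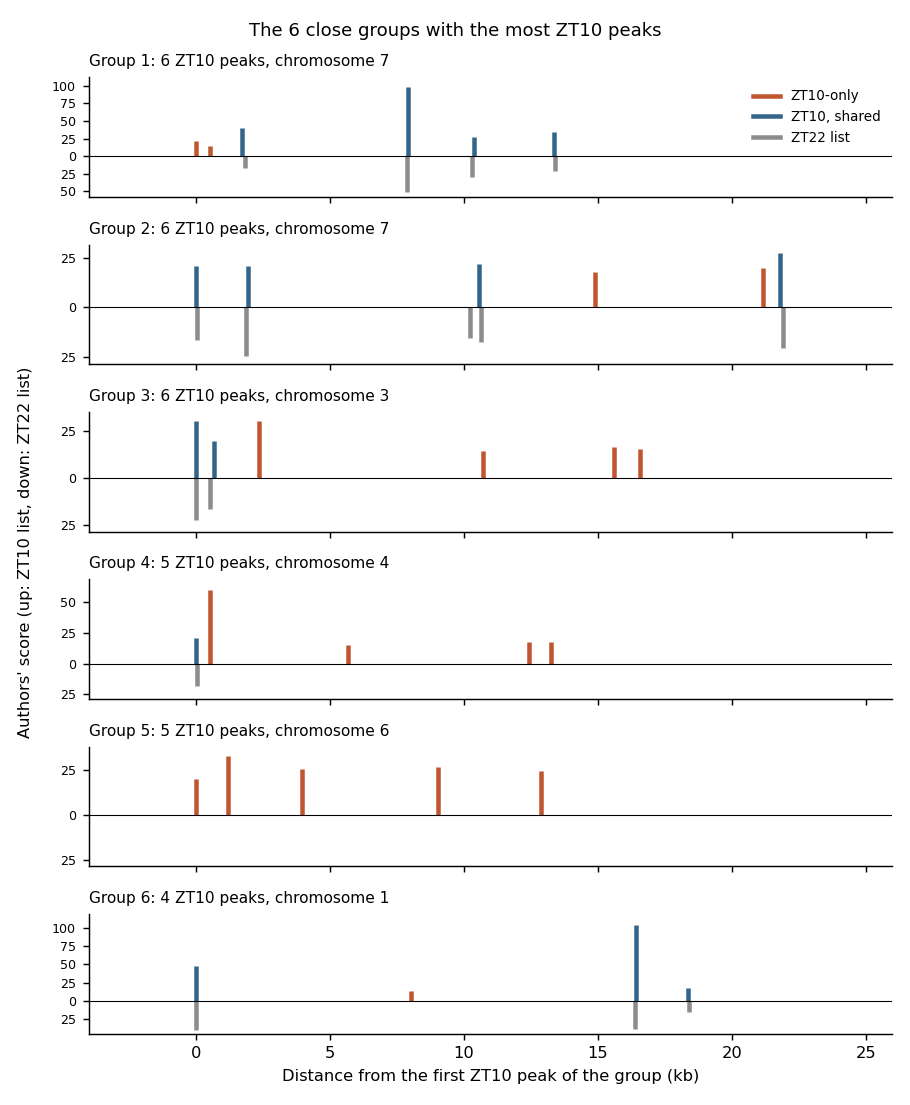
The 6 close groups with the most ZT10 peaks, each drawn from its first peak in kb; bars upward are authors' scores at ZT10 (orange for ZT10-only, blue for shared) and grey bars downward scores in the ZT22 list, with a scale of its own in each panel. The fifth group has 5 ZT10-only peaks and no ZT22 peak, and in the fourth the ZT10-only peak of 59.4 is the highest.

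Beside the chr6 group, 4 more groups of 4 or more peaks were ZT10-only throughout, and they are named here after their values were seen. In chr2:60550594-60561153 the scores were 19.8, 19.8, 22 and 44, and the last and strongest peak lay 155 bp from a ZT22 peak that did not overlap it. The group chr4:149363427-149381635 scored 16.5, 17.6, 25.3 and 15.4 and had a ZT22 peak 948 bp from its first peak. Both chr13:44317952-44328251, with 22, 17.6, 17.6 and 15.4, and chr9:107492645-107504665, with 14.3, 17.6, 17.6 and 23.1, had no ZT22 peak within 10 kb. Groups made of ZT10-only peaks thus differed in whether ZT22 signal was listed next to them.

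The 10 highest-scoring grouped ZT10-only peaks are given next. They were picked for their scores from a set with a median of 18.7, so a lower neighbour follows from that choice and is no finding. The highest, chr15:83963976-83964125, scored 131.9 and was the fourth highest of all 4093 ZT10 peaks (if a step is 1 read, 109 to 158). Its partner, chr15:83962584-83962733, 1392 bp away, scored 33 and was listed at ZT22 too, where the peak nearest to the strong site, 1338 bp from it, scored 16.4. In this pair the weaker of the neighbours was therefore the one listed at both times.

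Next came chr1:63421295-63421444 with 83.6, paired with a ZT10-only peak of 17.6 at 5067 bp, and chr19:42676975-42677124 with 82.5, paired with a ZT10-only peak of 16.5 at 876 bp. The peak chr10:94605506-94605655 scored 77 and its ZT10-only neighbour 29.7, and chr13:28508193-28508342 scored 66 and its ZT10-only neighbour 18.7. The nearest ZT22 peaks lay 20868, 8920, 154864 and 1834497 bp from these 4 sites. None of the 4 had a shared peak in its pair.

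The rest of the 10 highest scored 64.9 (chr4:47616732-47616881), 60.5 (chr17:27297988-27298137), 59.4 (chr4:119950381-119950530 of the group above, and chr4:148310904-148311053) and 56.1 (chr6:37817076-37817225). Among the 10, only chr4:148310904-148311053 had a nearest neighbour of higher score, a shared peak of 64.9 at 9626 bp. In 4 of the 10 the nearest neighbour was a shared peak. The intervals of these 10 sites, if a step is 1 read, begin at 41.8 or higher, above the lowest listed score of 14.3. This follows from their choice by score and is no finding.

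Most grouped ZT10-only peaks had no ZT22 peak near them. For 506 of 766 (66.1%) none was listed within 10 kb, and 222 of the 257 groups of ZT10-only peaks had none within 10 kb of any part of the group. A ZT22 peak was within 500 bp of 34 peaks (4.44%), within 1 kb of 65 (8.49%) and within 10 kb of 260 (33.9%), and the median distance was 53614 bp. Of those 260, the nearest ZT22 peak overlapped another ZT10 peak for 173 and overlapped no ZT10 peak for 87. For isolated ZT10-only peaks the median was 289260 bp, and 5.27% had a ZT22 peak within 10 kb. Part of that gap is set by the rule, since a shared neighbour brings its ZT22 peak with it.

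ZT22 peaks without a ZT10 overlap are not brought by a shared neighbour, and 749 of the 1459 ZT22 peaks (51.3%) were of this kind. A ZT10 neighbour that narrowly misses such a peak can still bring it near, so the rule can add to this gap too. At least 1 of them lay within 10 kb of 95 grouped ZT10-only peaks (12.4%, Wilson interval 10.3% to 14.9%) and of 138 isolated ZT10-only peaks (5.27%, 4.48% to 6.20%). Within 1 kb the shares were 3.92% (2.76% to 5.54%) and 2.52% (1.99% to 3.20%). Shared peaks showed a like split, at 9.95% in close groups and 4.09% when isolated. Inside the set the share was 12.5% in groups of ZT10-only peaks and 12.2% in mixed groups. The 95 peaks belonged to 55 of the 413 groups (13.3%) and stood near 60 ZT22 peaks, so several peaks of a group were counted for the same ZT22 peak.

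Further out, more of the grouped than of the isolated peaks had other peaks around them. Between 10 and 100 kb away, leaving out the own group, 60.8% of grouped ZT10-only peaks had another ZT10 peak, against 53.8% of isolated ZT10-only peaks, and the mean number was 1.24 against 0.989. A ZT22 peak lay in that ring for 38.3% against 25.7%. The median numbers did not differ, at 1 ZT10 peak and 0 ZT22 peaks for grouped and isolated ZT10-only peaks alike. Among shared peaks the shares for ZT10 were 67.0% in close groups and 57.1% when isolated, and for ZT22 45.7% and 30.9%. Peaks of 1 group share most of this ring, so the same outside peak can be counted for several of them. Isolated peaks have no such group mates, and the differences were not tested.

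**Figure D4:**
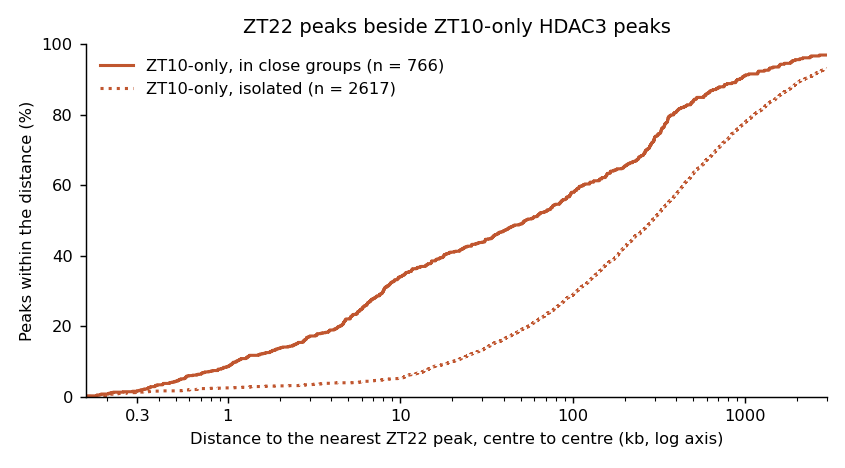
Cumulative share of grouped (solid, n = 766) and isolated (dotted, n = 2617) ZT10-only peaks that have a ZT22 peak within a given distance in kb (log axis, centre to centre). At 10 kb the shares are 33.9% and 5.27%; part of this gap is set by the rule, as shared neighbours carry a ZT22 peak.

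Grouped ZT10-only peaks occurred on all 20 chromosomes that had ZT10 peaks. Numbers were highest on chromosomes 4 (59), 11 (57) and 7 (56). As a share of each autosome's ZT10-only peaks they ranged from 15.2% on chromosome 12 (20 of 132) to 28.2% on chromosome 9 (51 of 181), with a median of 22.4%. Chromosome 2 had 230 ZT10-only peaks, the third highest number, but only 38 of them (16.5%) were grouped. The X chromosome had 33 ZT10-only peaks, of which 2 were grouped (6.06%). They form 1 pair, chrX:50527051-50527200 with a score of 25.3 and chrX:50529638-50529787 with 34.1, which is named after its values were seen. With so few peaks the share on the X is imprecise.

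**Figure D5:**
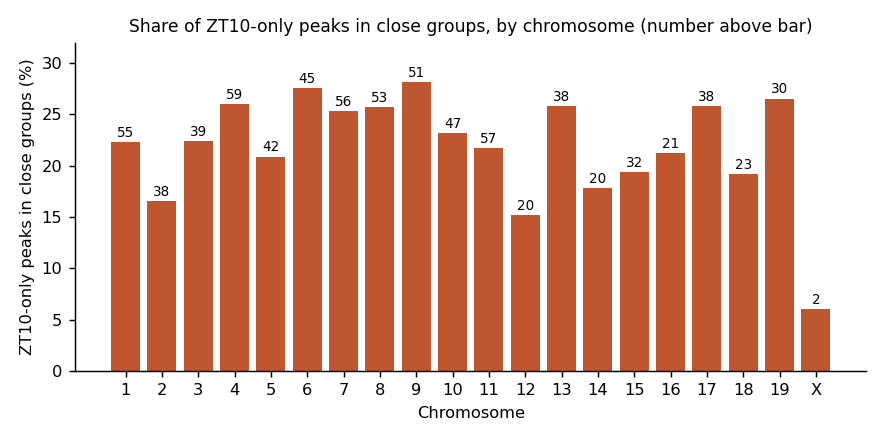
Share of the ZT10-only peaks of each chromosome that lie in close groups, in percent, with their number above each bar. Autosomes lie between 15.2% (chromosome 12) and 28.2% (chromosome 9), and the X chromosome is at 6.06% with 2 peaks.

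The ZT22 list was sparser than the ZT10 list. By the same 10 kb limit 187 of its 1459 peaks (12.8%) had a neighbour in their own list, against 24.1% of the 4093 ZT10 peaks. The lists differ in length, and among the 1552 strongest ZT10 peaks (as many as the ZT22 list plus those tied with the last), 15.8% were grouped. In that shorter list 148 of 1081 ZT10-only peaks (13.7%) and 97 of 471 shared peaks (20.6%) lay in close groups. The number of grouped ZT10-only peaks thus depended on how many ZT10 peaks were listed, while their grouped share was below that of shared peaks in the long and in the short list. No gene was linked to a peak, because gene positions of mm9 were not used here.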

How the data were processed

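HDAC3 ChIP-seq and RNA-seq of mouse quadriceps were used. The authors' deposited peak lists (Bowtie and HOMER, mm9, per the submitters' processing notes) give 150 bp peaks with a score; the sources used here do not name its scale. The list names state a minimum of 1 RPM and a filter by the knockout. The deposited FPKM values come from TopHat2 and Cuffdiff runs of the authors, per the submitters' processing notes, and the deposited p-values of the authors' comparison were not used. From the lists, distances between peak centres, overlaps of at least 1 bp and close groups were computed in Python 3.11.15 with pandas 2.3.3, numpy 2.4.6 and scipy 1.17.1. The counts of members, shared peaks and groups were checked on simulated pairs and lone peaks, and longer runs were not simulated. Intervals are 95% Wilson intervals for shares and 95% exact Poisson intervals for score steps. By rule, the named regions are the 6 groups with the most ZT10 peaks, the 10 highest-scoring members and the peaks at the 10 kb edge. The peaks at the overlap edge, the closest pair, 4 further groups of ZT10-only peaks and the pair on the X were added after their values were seen; peaks at the lowest score were too many to name and are counted. Members, lists and rules were chosen with earlier results of these data known. Planned motif, annotation and nearest-gene results were left out, since no genome or gene positions of mm9 were used here. Groups came from the sample labels.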

Additional observations from a re-analysis of the deposited data

How the results depend on the processing

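Of 39 alternative values, 21 stayed within 1.5 times of the reported count or within its 95% interval and 18 moved. With scores of 20 or more in both lists, 224 peaks in 129 groups remained by the rule, with a median score of 28.6, and the grouped shares were 15.8% of ZT10-only and 20.8% of shared peaks. Only 180 of the 224 were among the 766, since peaks whose ZT22 partner scored under 20 became ZT10-only. A limit of 5 kb gave shares of 15.5% and 21.8%, and one of 20 kb 32.8% and 42.3%. When only other ZT10-only peaks could make a group, the shares were 18.7% and 23.8%. An overlap of at least 75 bp, or a ZT22 centre within 500 bp, changed none of the 5 results beyond those limits.

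Alternatives chosen after seeing the data were to leave out neighbours closer than 1 kb, with shares of 18.1% and 26.3%, and to keep the 1552 strongest ZT10 peaks, with 148 peaks in 97 groups, a median score of 29.7 and shares of 13.7% and 20.6%. In each of the 8 alternatives the grouped share was lower for ZT10-only than for shared peaks. These settings reuse the same peaks, and none compares ZT10-only and shared peaks of like score, so they are no separate support. By score class, under the reported rule, the shares were 20.8% and 29.0% under 20, and 23.7% and 29.8% from 20 to under 30. From 30 to under 40 they were 30.7% and 31.9%, the smallest gap, and at 40 or more 31.8% and 35.6%. Leaving out neighbours closer than 1 kb gives no number of groups. The motif, annotation and nearest-gene alternatives were not run. No paired analysis was possible because the results come from 1 ChIP-seq library per time and from no test.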
